A study of Homo sapiens with 12 samples.

Results

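The 22Rv1 line carrying a nontargeting shRNA (shNT) served as the control of a CENPA knockdown study, and its own messenger RNA is described here in absolute levels. 22Rv1 is an established human prostate carcinoma line, a lineage of luminal type. The members are the 4 shNT runs of the 12 RNA-seq runs in the series, which are 2 libraries of the 6, each sequenced in 2 lanes. The lanes of a library were averaged on the log2 scale, so every level has n = 2 libraries. The shNT cells were not the parental line. They carried an integrated lentiviral Tet-On vector with the nontargeting hairpin, had been selected with puromycin, and had received doxycycline at 2 µg/ml for 72 h. Nothing in the labels says that the libraries came from separate cultures, so the spread between them may be technical. No level was compared with the knockdown cells, but whether a gene had a value was set by all runs of the series, knockdown runs included.

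The prostate gland is lined by luminal cells, which secrete proteases under the control of androgen, and by basal cells beneath them. In luminal cells androgen acts on genes together with FOXA1, a pioneer factor that opens chromatin, and with the prostate homeobox protein HOXB13. Prostate cancers mostly keep luminal features, and some take on neuroendocrine or gastrointestinal gene programs. The level of each gene is given as log2 RPKM (reads per kilobase of gene, scaled to the size of the library), a unit that divides by gene length and so allows genes to be compared with each other. A value of 0 on this scale is 1 RPKM. Levels of genes were taken to differ where both libraries of the one lay above both libraries of the other.

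Library 1 held 110222223 reads on the listed genes and library 2 held 84069564, as recovered from the deposited values. Across the 14828 genes with a value, the median gene stood at log2 RPKM 2.32 and the middle 9 in 10 genes lay between -1.78 and 5.65. List medians are over the members with a value, and percentiles and ranks are over these 14828 genes. A mean of 1 RPKM was reached by 12119 genes (81.7%), 10 RPKM by 4715 genes and 100 RPKM by 290 genes. The median SD between libraries was 0.055 on the log2 scale for genes of at least 1 RPKM, against 0.023 and 0.027 between the lanes of library 1 and of library 2. Genes with 1000 to 10000 reads per library had a median SD of 0.053, and the SD expected from counting error had a median of 0.024. The first is observed at n = 2 and the second is an expected value. They are not like measures, so the excess over counting error cannot be read from them exactly.

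**Figure D1:**
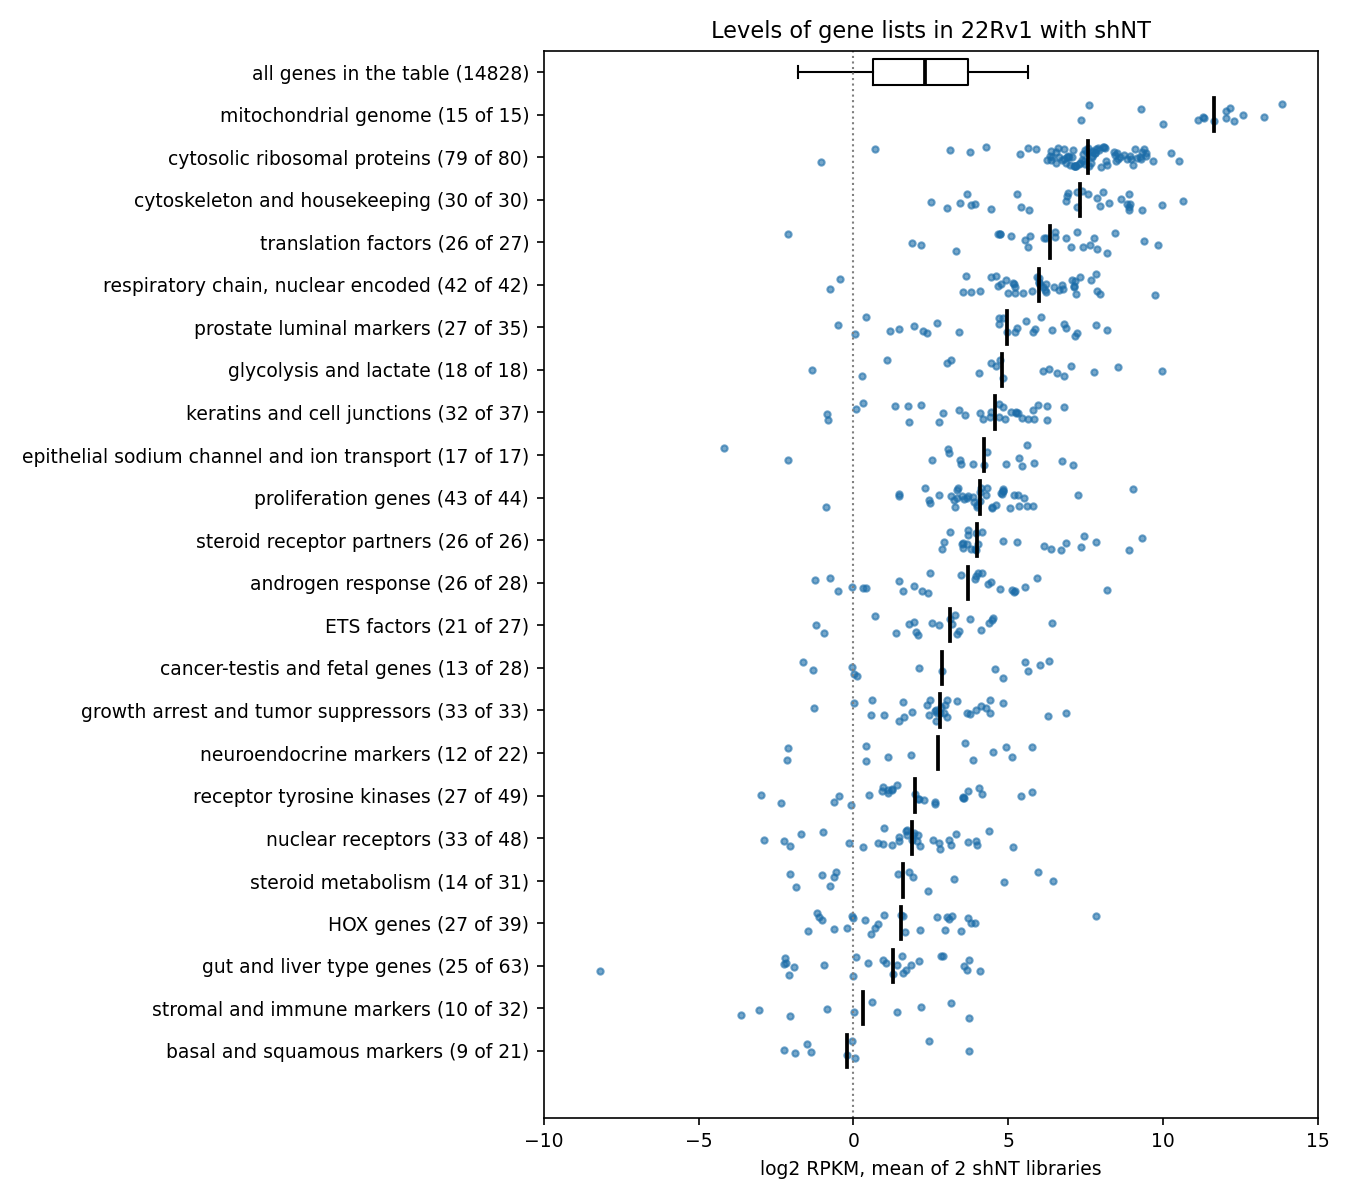
Levels of 23 gene lists in 22Rv1 with shNT, as log2 RPKM averaged over 2 libraries. Each point is a gene, the black bar is the list's median, and the numbers after each name give the members with a value; the box of all 14828 genes spans the quartiles with whiskers at the 5th and 95th percentiles, and luminal markers (median 4.97) lie above its median of 2.32 while basal markers (median -0.21) lie below.

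Many luminal identity genes were among the abundant transcripts of the line. Of 35 luminal markers, 27 had a value, 26 reached 1 RPKM and 18 reached 10 RPKM. The median of the 27 was 4.97, at the 91.0 percentile of the genes with a value. The 8 markers without a value do not enter it. The 6 transcription factors of the list had a median of 6.64. HOXB13, a posterior homeobox factor of the prostate, was at 7.90 in library 1 and 7.79 in library 2, which ranked it 88 of all genes. FOXA1 was at 6.90 and 6.82, SPDEF, an ETS factor of secretory epithelium, at 6.50 and 6.34, and GATA2 and GRHL2 at means of 5.27 and 4.82. GRHL2 was the lowest of the 6.

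Surface proteins of prostate cancer spread more widely. FOLH1, which encodes prostate-specific membrane antigen, was at 7.23 and 7.25, and the metalloreductase genes STEAP1 and STEAP2 had means of 6.07 and 5.57. EPCAM, the epithelial adhesion molecule, was at 5.24 and 5.23. TMPRSS2, a membrane serine protease under androgen control, was lower at 1.99 and 1.92, SLC45A3 stood at 1.50 and 1.46, and PSCA at 0.14 and -0.01. The luminal keratin genes KRT18 (6.90 and 6.72) and KRT8 (5.90 and 5.70) differed from each other by 2.02-fold. PRAC1, a small transcript of prostate and rectum next to the HOXB cluster, was at 7.13 and 7.20. SCHLAP1, a long noncoding RNA of aggressive prostate cancer, was at 1.19 in both libraries. No value was analysed here for MSMB, TGM4, SEMG1, TRPM8, PCA3, ERG or PCAT1.

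**Figure D2:**
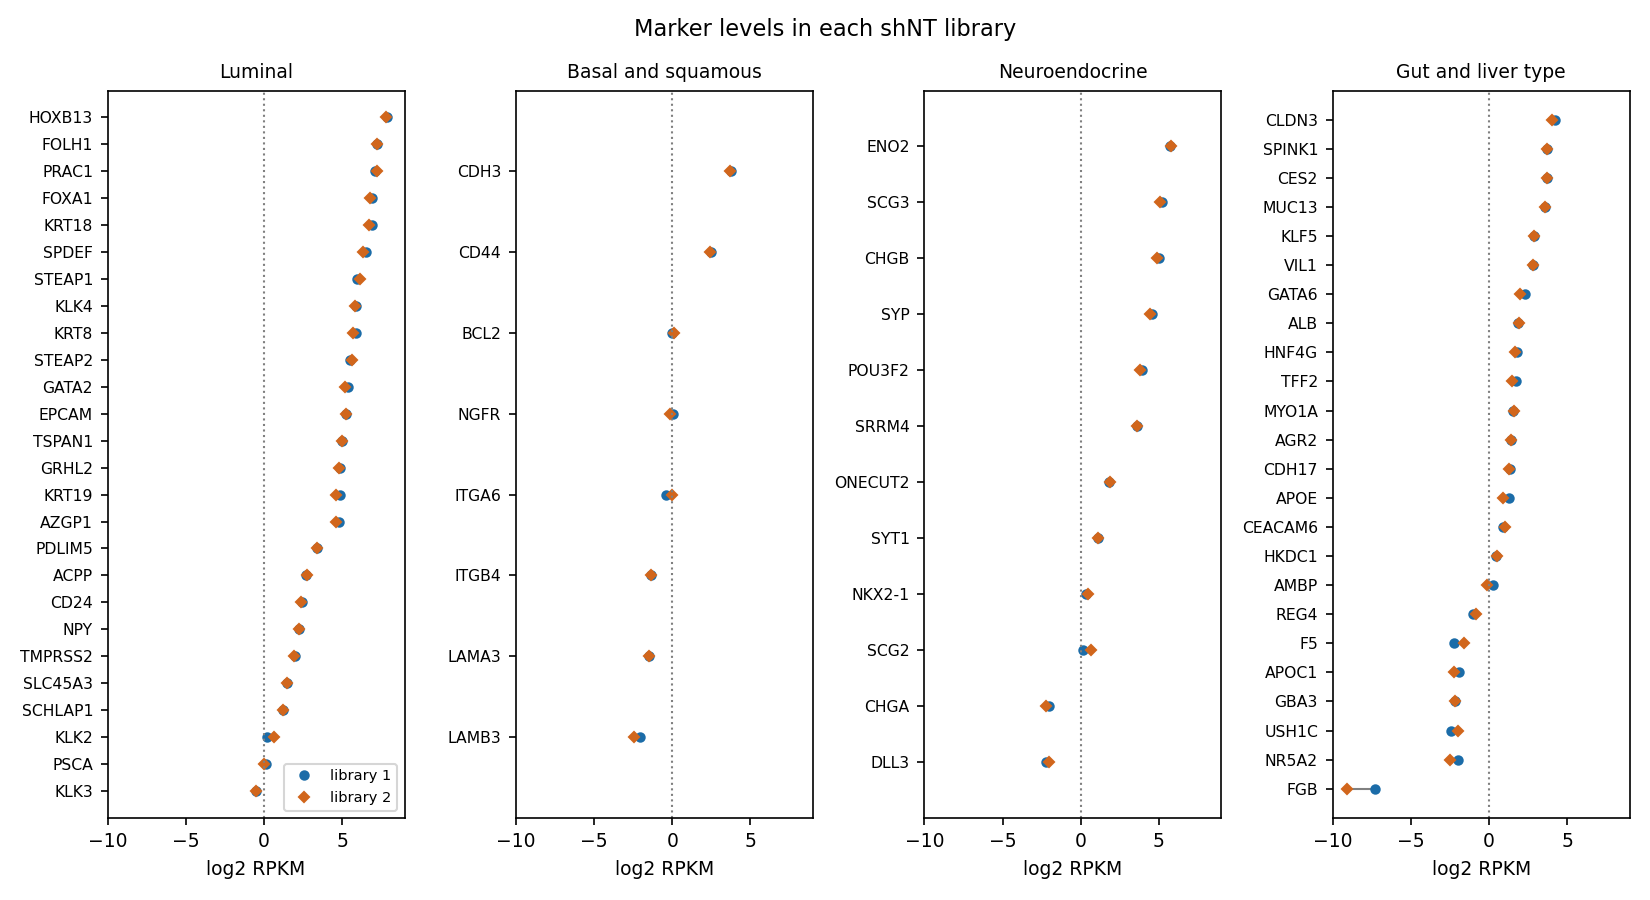
Levels of luminal, basal, neuroendocrine and gut or liver type genes in each shNT library, in log2 RPKM, with circles for library 1 and diamonds for library 2. The dotted line marks 1 RPKM; luminal genes shown reach 7.84 on average for HOXB13 whereas KLK3, the lowest luminal marker, lies at -0.48 in both libraries.

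The secreted kallikreins differed widely in level. KLK3 encodes prostate-specific antigen, KLK2 a closely related protease and KLK4 another protease of the same locus on chromosome 19. In the GENCODE 44 annotation of GRCh38 the genes lie at chr19:50854915-50860764 (KLK3), chr19:50861568-50880567 (KLK2) and, on the opposite strand, chr19:50906351-50911395 (KLK4). KLK4 was at 5.89 and 5.85, or 59.2 and 57.7 RPKM. KLK3 was at -0.48 in both libraries, or 0.716 and 0.718 RPKM, from 359 and 281 reads. KLK2 was at 0.20 and 0.62, or 1.15 and 1.54 RPKM. KLK4 therefore exceeded KLK3 by 82.6-fold in library 1 and 80.4-fold in library 2, and KLK2 by 51.4-fold and 37.5-fold. KLK2 also lay above KLK3 in both libraries.

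The upstream sequences of KLK2, KLK3 and KLK4 are shown as a description, and their part in the levels of these genes was not tested. They are the 250 bases before the outermost RefSeq start of each gene, 5′ to 3′ on the gene's strand, in GRCh38.p14, at chr19:50873189-50873438 for KLK2, chr19:50854665-50854914 for KLK3 and chr19:50911396-50911645 (minus strand) for KLK4. Capitals mark GAACAGCAAGTGCT, the run of 14 letters that KLK2 and KLK3 share from the GAACA core of the well-known proximal androgen response element of KLK3, chosen after the sequences were seen.
KLK2: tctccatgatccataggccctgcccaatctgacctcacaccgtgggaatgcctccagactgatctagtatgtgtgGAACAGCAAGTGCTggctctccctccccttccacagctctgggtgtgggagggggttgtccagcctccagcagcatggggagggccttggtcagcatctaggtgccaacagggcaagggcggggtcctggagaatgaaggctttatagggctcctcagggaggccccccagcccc
KLK3: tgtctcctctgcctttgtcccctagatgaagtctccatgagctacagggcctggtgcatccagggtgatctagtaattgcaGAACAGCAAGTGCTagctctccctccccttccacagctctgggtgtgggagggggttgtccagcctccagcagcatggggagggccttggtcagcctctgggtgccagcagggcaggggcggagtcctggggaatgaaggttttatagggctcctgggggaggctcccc
KLK4: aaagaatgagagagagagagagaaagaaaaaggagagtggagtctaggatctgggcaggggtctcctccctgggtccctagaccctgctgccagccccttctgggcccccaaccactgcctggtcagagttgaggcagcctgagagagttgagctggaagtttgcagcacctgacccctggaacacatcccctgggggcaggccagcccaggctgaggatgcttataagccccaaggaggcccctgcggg
In a global alignment KLK2 and KLK3 shared 205 of 250 bases (82%), whereas KLK3 and KLK4 shared 130 (52%). The match began 175 bases before the start in KLK2 and 169 bases before it in KLK3, and KLK4 had none in this window. On either strand, these 14 letters occurred in 2 of 35116 upstream windows of that length in RefSeq (0.0057%), those of KLK2 and KLK3. Because the letters were taken from these 2 windows, their presence there was fixed in advance. The share is therefore no evidence that the letters set the pair apart. A match is a description of letters and no measure of binding.

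All 26 genes for chaperones, pioneer factors and coregulators of steroid receptors on the list reached 1 RPKM, with a median of 4.00. Chaperones that hold such receptors ready for hormone led, HSP90AB1 at 9.31 and 9.32 and HSP90AA1 at 8.89 and 8.93, followed by HOXB13. The p23 gene PTGES3 was lower, at 7.35 and 7.33. Coactivator genes lay below these chaperone genes, with NCOA4 at 6.35 and 6.40, NCOA2 at 4.11 and 4.18, and CREBBP at 2.92 and 2.90. The cochaperone gene FKBP5, at 3.93 and 3.95, lay below NCOA4 and NCOA2. The corepressor gene NCOR1 was at 3.97 in both libraries.

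Androgen response genes were uneven in level. Of 28 on the list, 26 had a value and 22 reached 1 RPKM, with a median of 3.70. The fatty acid elongase gene ELOVL5 was at 5.53 and 5.54, and RHOU, a small GTPase gene, at 5.23 and 5.21. FKBP5, a cochaperone gene induced by androgen and glucocorticoid, was at 3.93 and 3.95, and NDRG1 at 1.61 and 1.63. The lowest were KLK3, EAF2 (mean -0.76, SD 0.34) and the kinase gene SGK1 (-1.22 and -1.28). HOXB13 exceeded KLK3 by 333-fold and 308-fold in the respective libraries.

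Enzymes that make or remove active androgen were mostly low. Of 31 steroid metabolism genes 14 had a value and 8 reached 1 RPKM. The highest were hydroxysteroid dehydrogenase genes with further roles in fatty acid or lipid metabolism, HSD17B10 at 6.47 and 6.45, HSD17B11 at 5.96 and 5.95 and HSD17B4 at 4.86 and 4.90. AKR1C3, which reduces androstenedione to testosterone, was at 1.95 and 1.89, and the steroid 5α-reductase gene SRD5A1 at 2.38 and 2.41. UGT2B15 and UGT2B17, near-identical genes whose products glucuronidate androgen, stood at -0.44 and -1.09 and at -0.87 and -1.13, and reads shared between such copies make these values uncertain. No value was analysed here for SRD5A2, CYP17A1, HSD3B1 or HSD3B2.

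Basal cell genes were few. Of 21 basal and squamous markers, 9 had a value and 3 reached 1 RPKM, and the defining genes TP63, KRT5 and KRT14 had none. P-cadherin, encoded by CDH3, was at 3.78 and 3.72 and CD44 at 2.49 and 2.42. The laminin genes LAMA3 and LAMB3 were at -1.51 and -1.50 and at -2.04 and -2.45. Of 32 stromal and immune markers, 10 had a value and 6 reached 1 RPKM. PTPRC, the leukocyte antigen CD45, and PECAM1, the endothelial antigen CD31, had no value. TWIST1, a transcription factor of mesenchyme, was at 3.80 and 3.69, CDH2, which encodes N-cadherin, at 3.14 and 3.16, and vimentin (VIM) at 2.20 and 2.16. COL1A1 was at -0.06 and 0.12.

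Neuroendocrine markers covered a wide range of levels. Of 22 on the list, 12 had a value and 10 reached 1 RPKM. The neuronal enolase gene ENO2 was at 5.74 and 5.81, and the granule protein genes SCG3 (5.19 and 5.08) and CHGB (4.99 and 4.88) followed. SYP, which encodes synaptophysin, was at 4.54 and 4.47. The neural transcription factor gene POU3F2 (BRN2) was at 3.94 and 3.81, and SRRM4, a splicing regulator of neural exons, at 3.59 and 3.60. Chromogranin A was low, with CHGA at -2.01 and -2.19 from 83 and 57 reads, 128-fold and 135-fold below CHGB in the respective libraries. Between these stood ONECUT2 (1.84 and 1.91), SYT1 (1.14 and 1.10), NKX2-1 (0.37 and 0.47) and SCG2 (0.15 and 0.68). DLL3, a Notch ligand of neuroendocrine tumors, was at -2.23 and -2.03. The defining genes INSM1 and NCAM1 had no value.

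Gut and liver type genes were present at low to moderate levels. Of 63 on the list, 25 had a value, 17 reached 1 RPKM and 4 reached 10 RPKM, with a median of 1.29 for those with a value. The highest was CLDN3, a tight junction gene found widely in epithelia, at 4.20 and 4.01. SPINK1, a secreted trypsin inhibitor, was at 3.71 and 3.74, the carboxylesterase gene CES2 at 3.68 in both libraries and the transmembrane mucin gene MUC13 at 3.58 and 3.59. Villin (VIL1), an actin-bundling protein of the brush border, was at 2.84 and 2.83, and CDH17, an intestinal cadherin gene, at 1.33 and 1.26. ALB, which encodes serum albumin, was at 1.83 and 1.89 from 1298 and 1057 reads, below the median gene. Among the transcription factors, KLF5 was at 2.90 and 2.87, GATA6 at 2.27 and 2.00 and HNF4G at 1.78 and 1.65. HNF4A, CDX2 and SERPINA1 had no value. The fibrinogen gene FGB was at the floor, with 3 reads in library 1 and 0 reads in library 2, and a count of 0 allows up to 3 reads.

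Of 48 nuclear receptor genes, 33 had a value and 27 reached 1 RPKM. The oxysterol receptor gene NR1H2 was at 4.43 and 4.31. The glucocorticoid receptor gene NR3C1 was at 2.74 and 2.77 and the mineralocorticoid receptor gene NR3C2 at 2.01 and 2.10. ESR1, ESR2 and PGR had no value. ESRRA, an orphan receptor of energy metabolism, was at 4.06 and 3.90, the retinoic acid receptor gene RARG at 3.34 and 3.29 and the vitamin D receptor gene VDR at 0.94 and 0.63. Neighbours in the order often did not differ, since 13 of the 32 adjacent pairs had overlapping libraries.

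Of 49 receptor tyrosine kinase genes, 27 had a value and 22 reached 1 RPKM. ERBB3, the kinase-impaired member of the epidermal growth factor receptor family, led at 5.76 in both libraries. Its partner ERBB2 was at 4.14 and 3.99, so that ERBB3 exceeded it by 3.06-fold and 3.39-fold. EGFR was at 1.42 and 1.43, 20.2-fold and 20.1-fold below ERBB3. The ephrin receptor gene EPHA3 stood next to ERBB3 at 5.38 and 5.47, and FGFR3 was at 4.22 and 4.11. Receptors often followed in carcinoma were lower, MET at 1.25 and 1.22 and IGF1R at 0.94 in both libraries. AXL, KIT, RET and PDGFRA had no value.

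The HOX genes, which mark position along the body axis, were described from a list added after the values were seen. HOXB13 exceeded the other HOXB genes, by 17.5-fold over HOXB7 (3.77 and 3.66) in both libraries. The next highest members were HOXC12 (3.98 and 3.89) and HOXC10 (3.91 and 3.69), both from the posterior end of their cluster. Of the HOXB genes 8 had a value and 7 reached 1 RPKM, of the HOXC genes 8 and 7, and of the HOXA genes 11 and 5. No HOXD gene had a value. Among 27 ETS transcription factor genes, also a list added later, 21 had a value. SPDEF was highest, ETV1, a partner in prostate cancer gene fusions, was at 4.50 and 4.53, ETV5 was at 4.40 and 4.39, and ERG had no value.

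**Figure D3:**
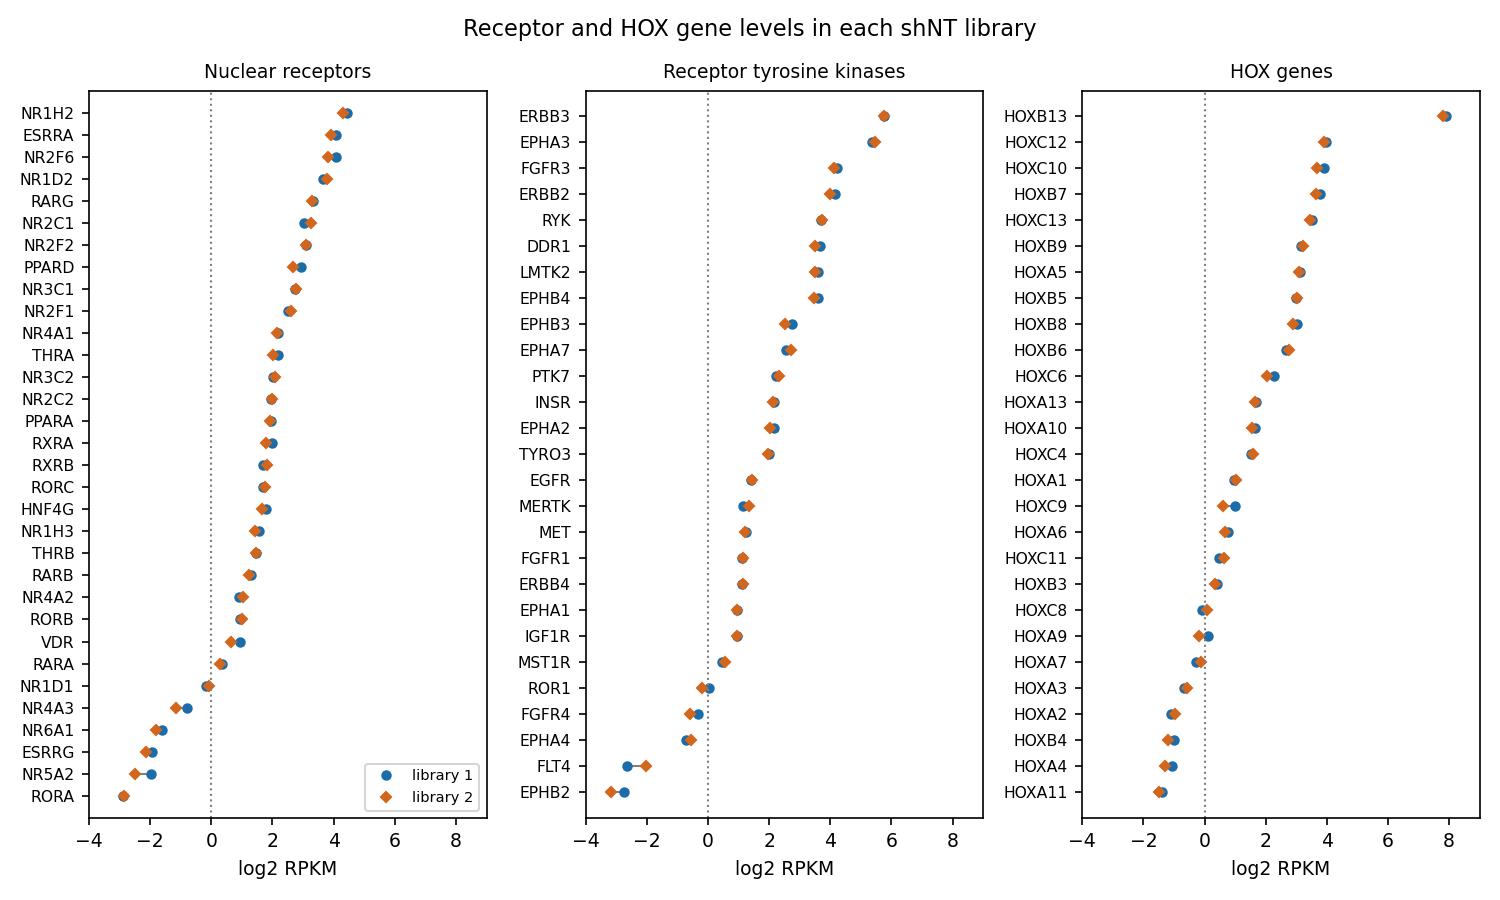
Levels of nuclear receptor, receptor tyrosine kinase and HOX genes in each shNT library, in log2 RPKM, with circles for library 1, diamonds for library 2 and a dotted line at 1 RPKM. ERBB3 and HOXB13 head their panels at means of 5.76 and 7.84, and the gap below HOXB13 is wider than any gap between other neighbours in the HOX panel.

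The cells had the transcripts of a proliferating line. Of 44 proliferation genes, 43 had a value and 42 reached 1 RPKM, with a median of 4.10 at the 81.3 percentile of all genes. CCND1 (chr11:69641156-69654474, GRCh38), the cyclin that starts G1 progression with CDK4 or CDK6, was at a mean of 9.05 (SD 0.07), or 546 and 512 RPKM, from 285137 and 208851 reads. It ranked 34 of all genes and lay above ACTB, the gene for β-actin (8.94 and 8.87), by 1.11-fold and 1.10-fold. CCND3 was at 2.75 and 2.77, 80.9-fold and 74.7-fold lower than CCND1, and CCNE1 was at 1.43 and 1.52. CCND2 had no value. CDK4 (5.37 and 5.31) exceeded CDK6 (1.48 and 1.45) by 14.8-fold and 14.5-fold.

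Transcripts of later phases were also abundant. The replication clamp gene PCNA was at 7.27 in both libraries and MCM7, a helicase subunit gene, at 5.80 and 5.79. TOP2A, which untangles replicated DNA, was at 5.45 and 5.58, the mitotic cyclin gene CCNB1 at 5.54 and 5.70 and its kinase CDK1 at 4.79 and 4.88. MKI67, the proliferation antigen gene, was at 4.10 in both libraries. The transcription factor genes MYC, FOXM1 and E2F1 had means of 4.83, 4.62 and 4.28, whereas E2F2 was at -0.78 and -0.97. CENPA, the gene targeted elsewhere in the study and the histone H3 variant of centromeres, was at 2.46 and 2.18, close to the median gene. Its SD of 0.20 was the largest among the 43 proliferation genes. Of the centromere proteins, CENPB was at 5.25 and 5.12, CENPU at 4.69 and 4.84 and the CENPA chaperone HJURP at 3.34 and 3.37.

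Inhibitors of the cycle stood beside these genes. All 33 growth arrest and tumor suppressor genes had a value and 32 reached 1 RPKM. CDKN1B, which encodes the inhibitor p27, was at 6.93 and 6.81 and CDKN1A, which encodes p21, at 6.35 and 6.21. CDKN2A was at 2.92 and 2.71, so CDKN1B exceeded it by 16.2-fold and 17.2-fold. RB1, a brake on G1 progression, was at 4.43 and 4.42. INPP4B, a phosphatase of the PI3K pathway, was lowest at -1.38 and -1.19.

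Epithelial junction genes were high. Of 37 keratin and junction genes 32 had a value and 30 reached 1 RPKM, with a median of 4.58. E-cadherin, encoded by CDH1, was at 6.29 and 6.20, β-catenin (CTNNB1) at 6.20 and 6.29 and CLDN7 at 5.86 and 5.78. OCLN, which encodes occludin, was at -0.84 and -0.86. All 17 ion and solute transport genes had a value. The sodium pump subunit gene ATP1B3 led at 7.06 and 7.11, and of the 3 subunits that form the epithelial sodium channel SCNN1G, at 3.96 and 3.81, lay above SCNN1A, at 3.49 and 3.45, by 1.38-fold and 1.28-fold. SCNN1B was at 3.48 and 3.43, and its libraries overlapped those of SCNN1A. CFTR was lowest at -3.83 and -4.50.

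Cancer-testis genes, whose products are normally limited to germ cells, reached high levels for a few members. Of 28 cancer-testis and fetal genes 13 had a value and 6 reached 10 RPKM. These were MAGEA4 (6.37 and 6.28), CTAG2 (6.07 and 5.97), MAGEA1 (5.68 and 5.61), MAGEA3 (5.58 and 5.52), MAGEA6 (4.83 and 4.84) and MAGEA12 (4.63 and 4.52). MAGEC2 was at 0.26 and -0.05, 69.0-fold and 80.4-fold below MAGEA4. MAGEA genes are close copies of each other, and so are CTAG2 and its neighbour, so reads may have been split or lost among them and the single values are uncertain.

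The most abundant transcripts came from the mitochondrial genome. The 10 highest levels were all mitochondrial, and MT-CO2 and MT-CO1, subunits of cytochrome c oxidase, were at 14.01 and 13.70 and at 13.42 and 13.12. Mitochondrial genes took 8.13% of reads in library 1 (95% Wilson interval 8.12% to 8.13%) and 6.65% in library 2 (6.64% to 6.65%), where the intervals cover counting error only. The 100 highest genes held 36.3% of the summed RPKM, or 19.2% of it where the mitochondrial genome was left out. Among those 100 were 13 mitochondrial genes, 35 cytosolic ribosomal protein genes, 25 genes of the other general lists and 27 others.

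Of the nuclear genes, TMSB10, which encodes an actin-sequestering thymosin, was highest at 10.69 and 10.60. RPS27, a protein of the small ribosomal subunit, came next at 10.54 and 10.50. GAPDH was at 10.01 and 9.93, the elongation factor genes EEF1A1 at 9.83 and 9.82 and EEF2 at 9.49 and 9.30, and ATP5B, the catalytic β subunit of ATP synthase, at 9.75 and 9.77. Ribosomal protein genes had a median of 7.56, with 63 of the 79 that had a value at or above 100 RPKM. The nuclear genes of the respiratory chain had a median of 6.01, against 11.63 for the 15 protein and ribosomal RNA genes of the mitochondrial genome. In the lactate pathway LDHB (7.78 and 7.76) exceeded LDHA (6.35 and 6.28) by 2.70-fold and 2.78-fold. The muscle and neuron form EEF1A2 was also present, at 7.11 and 6.94.

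**Figure D4:**
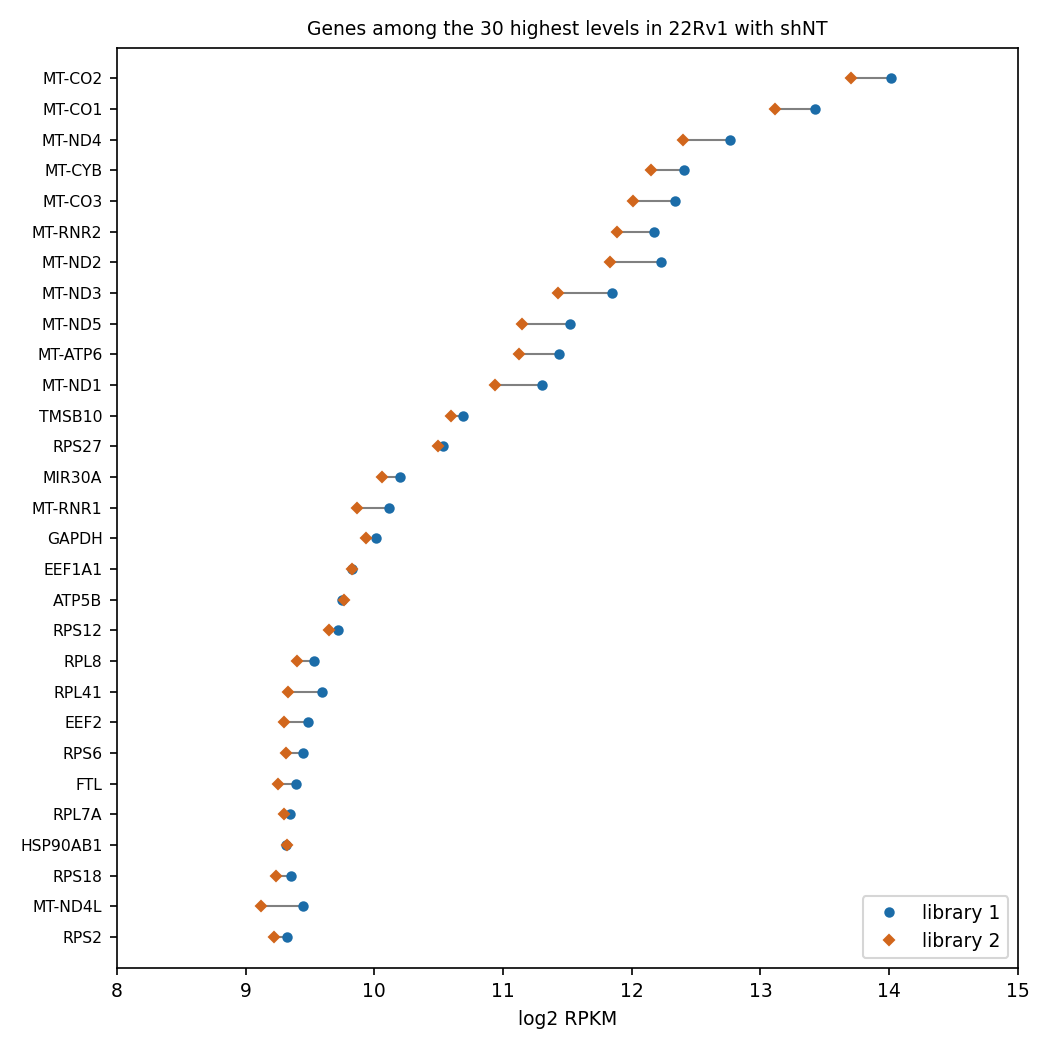
Genes among the 30 highest levels in 22Rv1 with shNT, in log2 RPKM (axis starting at 8), with circles for library 1 and diamonds for library 2. The 10 highest genes are mitochondrial and all lie lower in library 2, while the points of EEF1A1 and HSP90AB1 nearly coincide.

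Outside the general functions, the highest protein-coding genes were FTL, the ferritin light chain, at 9.39 and 9.25, CCND1, and RGS2, a regulator of G protein signaling, at 8.73 and 8.67. PTMS, CHCHD2, S100A11, PRDX2 and PEBP1 followed at means between 8.29 and 8.58. The sodium pump subunit gene ATP1B2 was at 8.24 and 8.15. The microRNA gene MIR30A ranked 15 at 10.20 and 10.06, but its feature is 71 bases long. RPKM is inflated for a feature close to a fragment in length, so the value is no measure of the mature microRNA.

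Some general genes had levels far below their lists. EIF4A1, an initiation helicase gene, was at -2.11 and -2.12 from 177 and 138 reads, against a median of 6.36 for translation factors. RPL36A was at -1.08 and -1.01 and RPL17 at 0.84 and 0.58, and NDUFA13, a complex I subunit gene, at -1.27 and -0.23. In GENCODE 44 another gene on the same strand shares 47.4% of the exon bases of EIF4A1 (SENP3-EIF4A1 among them), 32.9% for RPL17, 21.0% for NDUFA13 and 8.40% for RPL36A. SLC16A1, SLC16A3 and NDUFA11 were also low and, like RPL36A, had less than 10% of their exon bases shared. SLC16A1 of the glycolysis and lactate list was at -1.25 and -1.44 with no shared exon base. SLC16A3 was at 0.45 and 0.12 with 0.66% shared, and NDUFA11 at -0.59 and -0.24 with 9.65% shared. Among 165 annotated genes of the ribosomal protein, translation, respiratory chain and glycolysis lists, 6 of the 19 with at least 10% of their exon bases shared lay below log2 RPKM 4, against 12 of the 146 with less. The part of shared bases in these levels was not tested. B2M (3.72 and 3.60) and TMSB4X (2.57 and 2.46), which are not among the 165 genes, have no shared exon base and lay above the median gene.

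The libraries ranked genes almost alike, with Spearman's rho 0.997 across genes, which are not independent replicates. Among 14648 genes whose mean level was -3 or more (log2 RPKM), 63 (0.43%) differed by more than 1 on the log2 scale, 50 higher in library 2 and 13 lower. With a mean of at least 1 RPKM it was 22 of 12119 genes. All 15 protein and ribosomal RNA genes of the mitochondrial genome were lower in library 2. Ribosomal protein genes were lower there in 59 of 79 cases, with a median difference of -0.07. Annotated pseudogenes were higher in 249 of 385, with a median of 0.10. For comparison, 6430 of 12364 protein-coding genes were lower there and 5934 higher, and 289 of 526 long noncoding RNA genes were higher. Among genes with a mean of at least 1 RPKM, those furthest apart downward were RPPH1 (1.16 and -0.02) and EIF4HP1 (0.59 and -0.56). CTB-13F3.1 (1.17 and 0.05), RMRP (3.65 and 2.56) and a gene known by a clone name (0.85 and -0.21) followed. RPPH1 and RMRP are the RNAs of ribonucleases P and MRP. Furthest apart upward among the same genes were YJEFN3 (0.83 and 2.25), RPL10P6 (0.97 and 2.36), RP11-1055B8.4 (2.68 and 4.04), MAMDC4 (-0.50 and 0.85) and PDIA2 (-0.17 and 1.04). YJEFN3 shares exon bases with NDUFA13, which was also higher in library 2. With 1 group and n = 2 no test of these differences was made.

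**Figure D5:**
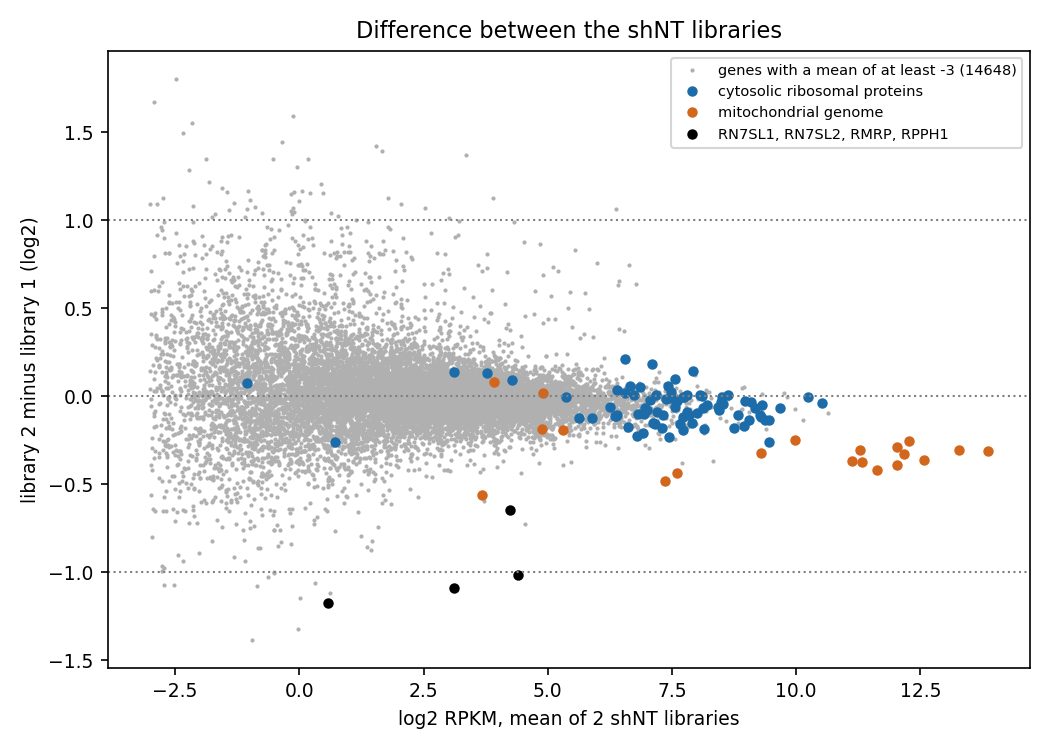
Difference between the shNT libraries (library 2 minus library 1, log2) against the mean level (log2 RPKM) for 14648 genes, with ribosomal protein genes, mitochondrial genes and 4 short structural RNAs in color. Dotted lines mark 0 and a difference of 1 in either direction; the most abundant mitochondrial genes lie below 0.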

How the data were processed

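By the paper's methods, poly(A) mRNA of 22Rv1 was sequenced as stranded paired reads, and the authors used TrimGalore for trimming, STAR for alignment to hg38, HTSeq for counts per gene and edgeR for differential expression (versions not given in the sources used here). The authors deposited log2 RPKM per run. Genes had to reach about 1 CPM in 3 runs of the whole series, knockdown runs included. This was read from the third-highest run of each gene across the series, which was never below 0.989 CPM. A gene could therefore have a value through the knockdown runs alone, as FGB did with its few shNT reads. Counts of genes with and without a value, and the shares and percentiles based on them, depend in part on the knockdown runs. HTSeq by default drops reads that fit several genes or places, which lowers overlapping and duplicated genes.

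The lanes of each shNT library were averaged on the log2 scale (Python 3 with numpy and pandas). Steps between values of all 12 runs gave back whole reads for 14828 of 14828 genes, the largest distance from a whole read being 4.8e-08, with a constant of 0.25 reads. The recovery was tested on simulated data. Symbols matched GENCODE 44 (GRCh38) for 13551 genes, 576 of them through older names, and upstream sequences are RefSeq's. The gene length behind the deposited values equalled the GENCODE 44 exon length for 12.9% of matched genes. Some were far apart, as for SDHC with 14160 against 1902 bases. The annotation release used for counting is not given, so exon bases shared in GENCODE 44 may differ from those at counting. Means and SD are over n = 2 libraries, and no test across groups was made.

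The members and gene lists were chosen with earlier results of these data known, and the mitochondrial, HOX and ETS lists after their values were seen. Named are the 30 highest genes, key genes, the ends of each list, the 5 genes furthest apart in each direction and the 10 highest outside general functions, with others of each list chosen after their values were seen. Alternatives were single lanes, single libraries, TPM, other thresholds, filters, constants and scalings. Every run column was mapped to a sample. Some items are not reported here.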

Additional observations from a re-analysis of the deposited data

How the results depend on the processing

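Of 171 recomputed counts and shares, 163 kept to their value (counts within 1.5 times, shares within 1 SD between libraries), among them every count and share from a single lane or a single library that was run. At n = 2 a share from a single library always lies within 1 SD of the mean, so for those shares the outcome was fixed in advance. Rescaling to TPM over the listed genes raised the genes at or above 100 from 290 to 1621, the basal markers at or above 1 from 3 to 7 and the steroid metabolism genes from 8 to 13, because a TPM is a smaller unit here than an RPKM. At a threshold of 0.5 RPKM the basal markers rose to 5. The share of the 100 highest genes fell from 36.3% to 18.5% where reads were not divided by gene length, and to 19.2% without the mitochondrial genome, an alternative chosen after seeing the data. Genes whose libraries differed by more than 1 went from 63 to 22 with a minimum of 1 RPKM and to 5 with 1 added to RPKM before the logarithm. For the 62 key genes, a single library moved a level by at most 0.32 and a single lane by at most 0.18. Adding 1 to RPKM moved levels by a median of 0.08 and by up to 2.40. Of these 62 levels, 36 counted as moved with 1 added to RPKM, 8 with lane 7 only and 8 with lane 8 only. No paired analysis was possible because 1 group was described and none compared. With n = 2, spread is known only roughly. Genes with fewer than 100 reads per library had a median SD of 0.23. The SD expected from counting error had a median of 0.16 there, again not a like measure.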

Other observations

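Long noncoding RNAs took 0.776% of the reads in library 1 (95% Wilson interval 0.775% to 0.778%) and 0.81% in library 2 (0.808% to 0.812%), over 537 genes that GENCODE 44 annotates as such. Their median level was 0.47, and 324 reached 1 RPKM. The highest were SNHG8 at 6.86 and 6.84, LRRC75A-AS1 at 6.81 in both libraries, GAS5, a host of small nucleolar RNAs, at 6.53 and 6.57, and NORAD, which binds Pumilio proteins, at 6.54 and 6.48. MALAT1, a nuclear RNA abundant in many cell types, was at 5.40 and 5.50, below CCND1. GATA2-AS1, which lies beside GATA2, was at 4.64 and 4.52.

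The signal recognition particle RNAs RN7SL1 (4.91 and 3.89) and RN7SL2 (4.56 and 3.91) were lower in library 2, as RMRP and RPPH1 were. These are short RNAs without the long poly(A) tails of mRNA, and the reason for the difference was not tested.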
